A study of Mus musculus with 8 samples.

Results

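The Wnt and Notch genes of the kidney were examined in Scube3 N294K/N294K mice and wild type mice. Members were the genes whose symbol in the array's probe annotation starts with Wnt, Fzd, Dvl, Sfrp, Dkk, Notch, Hes, Hey, Jag or Dll and goes on with a digit, together with Axin2, Lrp5, Lrp6, Ctnnb1, Apc, Tcf7l2 and Lef1. Axin1 and Tcf7 also belong to the rule, but no probe carries these names in the annotation used here. The rule found 62 of 16593 named genes, with 88 of 25697 probes. Of these, 45 genes act in Wnt signaling and 17 in Notch signaling.

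The data are transcript levels of whole kidney from 4 male mice homozygous for the N294K point mutation in Scube3 and 4 male wild type mice. All were C3HeB/FeJ and aged 29 weeks, and each mouse had 1 array of the type Illumina Mouse Ref8 v2.0 BeadChip. Scube3 encodes a secreted, cell surface-associated glycoprotein. The mutation arose by N-ethyl-N-nitrosourea (ENU) mutagenesis, so all mutant mice come from 1 mutant line, which may carry other induced changes linked to it. The labels do not say which mice were litter mates or which arrays were run together, and the file lists the wild type arrays before the mutant arrays, so an effect of array order cannot be told apart from genotype.

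Wnt proteins are secreted ligands that bind Frizzled receptors with the co-receptors LRP5 and LRP6. The signal passes through Dishevelled and holds back a complex of APC, axin and GSK3 that otherwise marks beta-catenin for breakdown, and beta-catenin then acts with TCF/LEF factors on target genes. Notch receptors are cut after they bind Delta-like or Jagged ligands on a neighbouring cell, and the freed domain switches on repressors such as Hes1 and Hey1. Both pathways are best known in the kidney for building the nephron in the embryo, where Wnt9b from the ureteric bud and Wnt4 in the mesenchyme start tubule formation and Notch2 sets proximal cell fate. In whole tissue, fewer cells of a type and less RNA per cell cannot be told apart.

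Values are log2 intensities after background correction, with an offset of 16 added before the logarithm, which draws the fold changes of dim probes towards 0. A probe was tested when its detection p-value was under 0.05 on at least 4 of the 8 arrays, which held for 12914 probes of 9000 genes. A probe passed when its p-value from limma, adjusted by the Benjamini-Hochberg method over all 12914 probes, was under 0.05. Where a gene has several tested probes, probe 1 is the one with the highest mean over all 8 arrays. Each array had 12602 to 13060 detected probes in Scube3 N294K/N294K mice and 12685 to 13127 in wild type mice, and the number of arrays limits the precision. The 2 Scube3 probes ranged from 4.94 to 5.89 in Scube3 N294K/N294K mice and from 4.73 to 5.56 in wild type mice. Neither passed (adjusted p = 0.625 and 0.249, limma), and a point mutation need not alter the level of its transcript, so these values do not check the labels. Kidney markers were present: 7 of 8 proximal tubule genes on the array, all 7 of the thick ascending limb and 6 of 7 of principal cells were above background. Over all tested probes, 1011 were higher and 1149 lower in Scube3 N294K/N294K mice, 16.7% in all. When arrays were scaled by their medians and not quantile-normalized, this split was 241 higher and 1588 lower.

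Of the 62 member genes, 31 were above background in adult kidney, with 40 tested probes, and all probes that passed belonged to Wnt genes, in both directions. Among these probes, 4 were higher and 6 lower in Scube3 N294K/N294K mice, 25% against 16.7% of all tested probes (7.83% higher and 8.9% lower). Under median scaling 1 member probe was higher and 8 were lower, and by probe 1 of each gene 1 gene was higher and 6 were lower. The called probes belong to 9 genes. Wnt9b and Dvl1 were higher on probe 1, Wnt5a, Fzd8, Lrp6 and Apc were lower on their only tested probe, Dkk3 was higher and Ctnnb1 lower on probe 2 alone, and Wnt7b was higher on probe 1 and lower on probe 2, which entered the test through the wild type mice. By probe 1 of each gene, 3 of 31 genes were higher and 4 lower, 22.6% against 16.3% of all 9000 genes (8.4% higher and 7.86% lower). The median log2 fold change over the 31 member genes was -0.00355, against 0.0255 over all genes. The genotypes did not overlap for 9 member probes (22.5%), 5 of them higher and 4 lower, against 23.8% of all tested probes (12% higher and 11.8% lower). All 10 called probes were Wnt probes (10 of 27), whereas 0 of 13 Notch probes passed in limma. At an unadjusted p under 0.05 there were 12 of 27 Wnt and 2 of 13 Notch probes, against 34% of all tested probes. The difference between the pathways was not tested. The number of called member probes fell to 5 of 40 without wild type mouse 1, where 8.83% of all tested probes were called. Without wild type mouse 2, Scube3 N294K/N294K mouse 2 or Scube3 N294K/N294K mouse 3 the number was 6, beside 10.2%, 10.2% and 11.6% of all tested probes. With all mice the share over all tested probes was 16.7%.

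**Figure D1:**
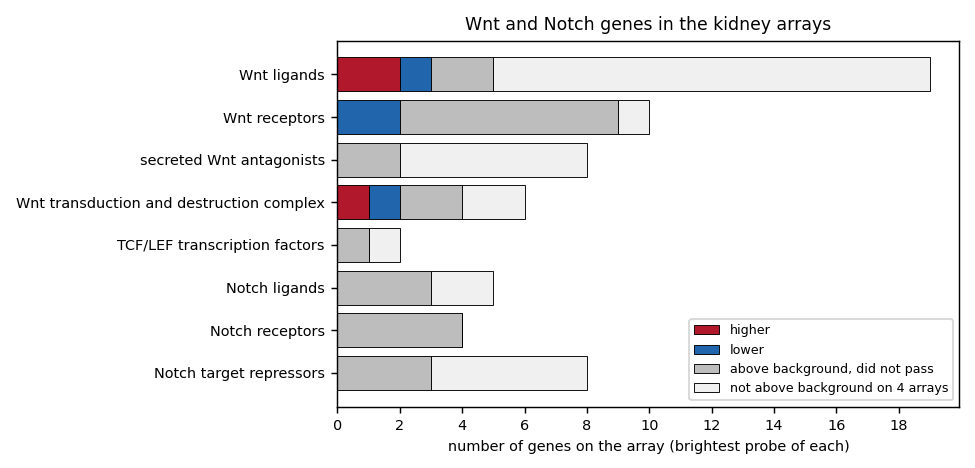
Number of member genes on the array in each role, split into genes higher or lower in Scube3 N294K/N294K mice than in wild type mice (adjusted p under 0.05, probe 1 of each gene), genes above background that did not pass, and genes not above background on 4 arrays. Of 19 Wnt ligands 14 were not above background, whereas all 4 Notch receptors and 9 of 10 Wnt receptors were.

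The ligands showed the largest rise among the members. Of 19 Wnt ligands on the array, 5 were above background: Wnt4, Wnt5a, Wnt5b, Wnt7b and Wnt9b. Wnt9b, the ligand of the ureteric bud and collecting duct that starts nephron formation, measured 6.15, 6.03, 5.77 and 6.05 in Scube3 N294K/N294K mice on probe 1, against 5.42, 5.36, 5.32 and 5.48 in wild type mice. Every Scube3 N294K/N294K mouse was above every wild type mouse, and the difference was 1.52-fold (log2 fold change 0.60, SE 0.084, adjusted p = 0.00388, limma). Probe 2 of Wnt9b measured 6.20, 5.80, 5.68 and 5.94 in Scube3 N294K/N294K mice, against 4.69, 4.97, 5.68 and 5.54 in wild type mice. The Scube3 N294K/N294K values were again the higher ones, but wild type mouse 3 reached the lowest of them, and the probe narrowly missed the threshold (log2 fold change 0.68, SE 0.208, adjusted p = 0.0501). Without wild type mouse 3 or 4 it passed (adjusted p = 0.0298 and 0.0469), and without any 1 of the other 6 mice it did not (0.0594 to 0.114).

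The promoters of Wnt9b and Dvl1 are shown because these genes were higher on probe 1 and have a promoter entry. The sequences come from RefSeq on GRCm38.p6 and run from 250 bases before the transcript start to 50 bases after it, with the Wnt9b promoter at chr11:103749772-103750071 on the minus strand and the Dvl1 promoter at chr4:155847152-155847451 on the plus strand. Capitals mark TGGGAA, the core of the site bound by RBPJ, the DNA-binding partner of Notch.
Wnt9b: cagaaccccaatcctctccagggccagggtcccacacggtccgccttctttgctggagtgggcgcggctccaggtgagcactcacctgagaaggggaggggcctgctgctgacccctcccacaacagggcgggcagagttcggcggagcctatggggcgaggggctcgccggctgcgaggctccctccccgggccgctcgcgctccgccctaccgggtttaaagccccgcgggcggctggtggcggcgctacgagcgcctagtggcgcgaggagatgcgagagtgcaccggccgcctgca
Dvl1: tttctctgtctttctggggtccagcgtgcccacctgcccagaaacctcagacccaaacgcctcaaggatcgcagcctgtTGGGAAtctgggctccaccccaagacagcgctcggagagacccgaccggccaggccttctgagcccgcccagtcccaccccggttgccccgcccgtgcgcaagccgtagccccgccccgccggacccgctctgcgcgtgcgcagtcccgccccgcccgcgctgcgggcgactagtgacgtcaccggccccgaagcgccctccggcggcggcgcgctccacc
Both strands were searched for this core and for the TCF/LEF core, written CTTTGAA or CTTTGAT, and no stretch counts as both. Neither promoter held a TCF/LEF core, which 8.65% of 32851 promoters of this length held. Dvl1 held 1 RBPJ core, 171 bases before the start, and Wnt9b held none, against 25.6% of all promoters with at least 1. Of the 62 member genes, 43 have a promoter entry, and 3 of these (Dkk1, Wnt11 and Wnt5b) held a TCF/LEF core while 8 (Dvl1, Hes5, Hes7, Hey2, Lef1, Wnt3, Wnt5b and Wnt9a) held an RBPJ core. A match is a stretch of letters and not a measured binding site.

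Wnt7b, a ligand made by the collecting duct epithelium, had fold changes of opposite sign on its 2 probes. Probe 1 measured 6.20, 6.28, 6.19 and 6.20 in Scube3 N294K/N294K mice, against 5.90, 5.89, 5.96 and 6.08 in wild type mice, with no overlap (log2 fold change 0.26, SE 0.0629, adjusted p = 0.0227). Probe 2 measured 5.13, 4.79, 4.70 and 4.52 in Scube3 N294K/N294K mice, against 5.39, 5.20, 5.11 and 5.18 in wild type mice, and was above background in 1 of 4 Scube3 N294K/N294K mice and in 4 of 4 wild type mice. It entered the test only through the wild type mice, where it is higher, so its call, though counted, is no support for a fall. The log2 fold change was -0.43 (SE 0.12, adjusted p = 0.0371), although Scube3 N294K/N294K mouse 1 lay within the wild type range. Both calls were lost without single mice. Without wild type mouse 1 or 2 or Scube3 N294K/N294K mouse 2, probe 1 had an adjusted p of 0.0576 to 0.0607. Probe 2 did not pass without any 1 mouse other than Scube3 N294K/N294K mouse 1 (adjusted p of 0.0524 to 0.0947), and probe 1 did not pass under median scaling (adjusted p = 0.157).

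Wnt5a, a ligand best known for signaling without beta-catenin, was lower in Scube3 N294K/N294K mice. It measured 6.25, 6.01, 6.02 and 6.20 in Scube3 N294K/N294K mice and 6.43, 6.52, 6.64 and 6.62 in wild type mice, with no overlap. The difference was 1.35-fold (log2 fold change -0.43, SE 0.078, adjusted p = 0.00901). The other tested ligands did not pass. Wnt4, which drives the mesenchyme to form epithelium, had a log2 fold change of 0.22 with a 95% confidence interval from -0.09 to 0.53, and Wnt5b, a close relative of Wnt5a, had -0.09 with an interval from -0.37 to 0.19. Principal cells of the collecting duct, a known source of Wnt7b and Wnt9b, had 1 of 6 tested markers higher (Scnn1b) and 2 lower (Aqp4 and Hsd11b2), and their summed intensity on a linear scale was 3644 to 4219 in Scube3 N294K/N294K mice and 3733 to 4236 in wild type mice. Urothelium, which lines the renal pelvis, had all 4 tested markers higher (Upk1a, Upk1b, Upk2 and Upk3a) with Krt5 not above background, and its summed intensity was 266 to 365 in Scube3 N294K/N294K mice, against 170 to 214 in wild type mice. The part of these cells in the ligand results was not tested.

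**Figure D2:**
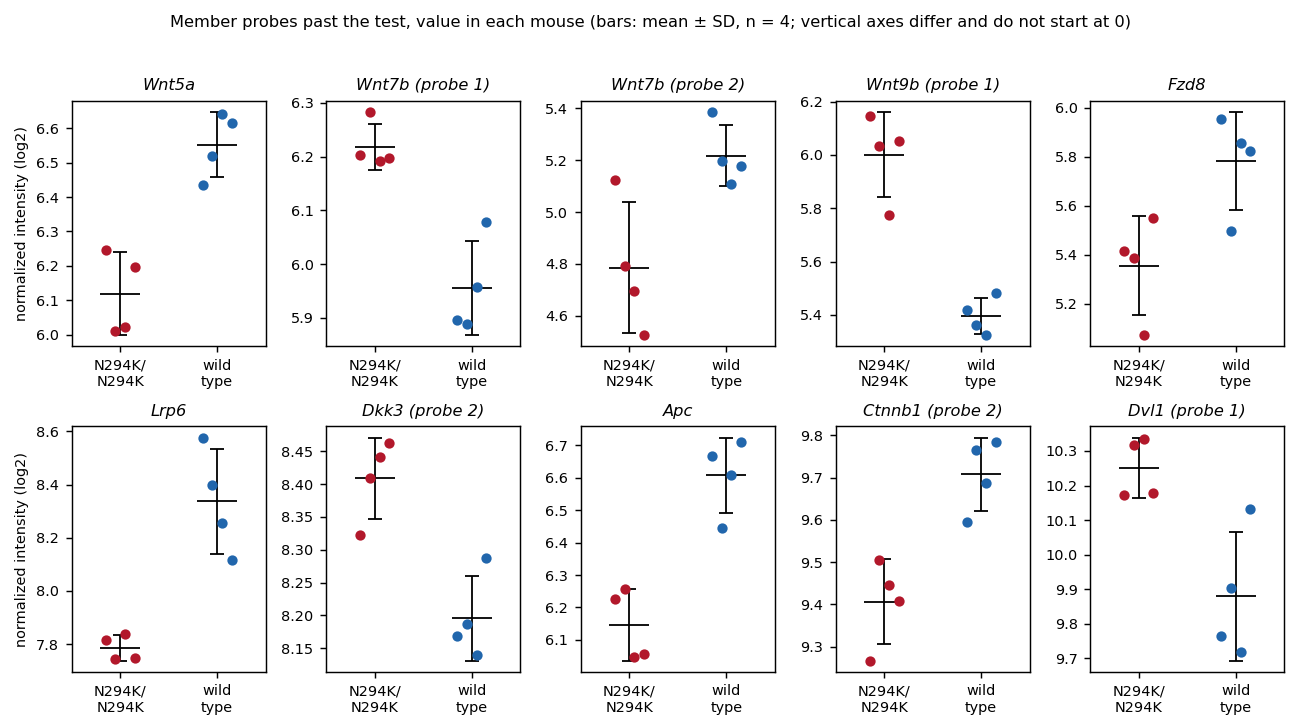
Normalized log2 intensity of the 10 member probes that passed (adjusted p under 0.05, limma), with 1 point per mouse and bars for the mean ± SD of 4 mice. The vertical axes differ and do not start at 0. Wnt9b probe 1, Wnt5a, Lrp6 and Apc show a wide gap between Scube3 N294K/N294K and wild type mice, whereas Fzd8 and Wnt7b probe 2 overlap.

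The receptors were the Wnt group with the largest share of genes above background, 9 of 10. Of these 9, 2 (22.2%) were lower in Scube3 N294K/N294K mice and none was higher, beside 16.3% of all genes called (8.4% higher and 7.86% lower). The fold change was positive for 5 of the 9 receptor genes and negative for 4. Lrp6, the co-receptor that canonical Wnt ligands need beside a Frizzled, measured 7.81, 7.75, 7.84 and 7.75 in Scube3 N294K/N294K mice, against 8.58, 8.40, 8.26 and 8.12 in wild type mice. The Scube3 N294K/N294K values were tightly grouped below the whole wild type range, and the difference was 1.47-fold (log2 fold change -0.55, SE 0.0936, adjusted p = 0.00766). Fzd8, a Frizzled receptor, measured 5.42, 5.39, 5.07 and 5.55 in Scube3 N294K/N294K mice and 5.95, 5.50, 5.86 and 5.82 in wild type mice. It was 1.34-fold lower (log2 fold change -0.43, SE 0.122, adjusted p = 0.0401), but wild type mouse 2 lay below Scube3 N294K/N294K mouse 4. The Fzd8 call was lost without any of wild type mice 1, 3 and 4 or Scube3 N294K/N294K mice 1, 2 and 3 (adjusted p of 0.0637 to 0.103).

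The 7 other receptors did not pass. Log2 fold changes were 0.20 for Fzd1, 0.18 for Fzd10, 0.07 for Fzd2, 0.06 for Fzd6 and 0.09 for Fzd7, all of them Frizzled receptors, and -0.22 for Fzd4, a Frizzled receptor of endothelium among other cells. Lrp5, the second co-receptor, had a log2 fold change of -0.15 with a 95% confidence interval from -0.37 to 0.07. That interval does not exclude a fall, and whether Lrp5 and Lrp6 differ from each other was not tested. Over these receptors the intervals ran from -0.48 for Fzd4 to 0.48 for Fzd1. Fzd3 was not above background.

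Most secreted antagonists among the members were not above background, and the exceptions were Dkk3 and Sfrp1. Dkk3, a divergent member of the Dickkopf family, measured 8.32, 8.41, 8.44 and 8.46 on probe 2 in Scube3 N294K/N294K mice, against 8.17, 8.19, 8.14 and 8.29 in wild type mice. These values did not overlap and the rise was small (log2 fold change 0.21, SE 0.061, adjusted p = 0.0405). On probe 1, Dkk3 measured 8.56, 8.60, 8.80 and 8.86 in Scube3 N294K/N294K mice and 8.48, 8.28, 8.49 and 8.81 in wild type mice, with overlap (log2 fold change 0.19, SE 0.115, adjusted p = 0.265). Both fold changes of Dkk3 were positive, and the call on probe 2 was lost under median scaling (adjusted p = 0.361) and without any of wild type mice 1, 2 and 3 or Scube3 N294K/N294K mice 2, 3 and 4 (adjusted p of 0.0798 to 0.0916). Sfrp1, a secreted protein that binds Wnt ligands, had a log2 fold change of -0.05 with an interval from -0.23 to 0.13.

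Inside the cell, Apc of the destruction complex was lower, and the Dishevelled gene Dvl1 was higher on probe 1 alone. Apc, a scaffold of the complex that marks beta-catenin for breakdown, measured 6.23, 6.26, 6.05 and 6.06 in Scube3 N294K/N294K mice, against 6.67, 6.45, 6.61 and 6.71 in wild type mice. No values overlapped and Apc was 1.38-fold lower (log2 fold change -0.46, SE 0.0801, adjusted p = 0.00814). Dvl1, which carries the signal from the receptor, measured 10.17, 10.32, 10.34 and 10.18 on probe 1 in Scube3 N294K/N294K mice, against 9.76, 9.90, 9.72 and 10.13 in wild type mice. It was 1.29-fold higher without overlap (log2 fold change 0.37, SE 0.0945, adjusted p = 0.0276). Probe 2 of Dvl1 measured 6.36, 6.09, 6.03 and 5.24 in Scube3 N294K/N294K mice and 6.45, 6.12, 6.28 and 6.39 in wild type mice. Its difference had the opposite sign and did not pass, with Scube3 N294K/N294K mouse 4 far below the rest (log2 fold change -0.38, SE 0.204, adjusted p = 0.221). The call on probe 1 was lost under median scaling (adjusted p = 0.0565) and without any of wild type mice 1, 2 and 3 or Scube3 N294K/N294K mice 2 and 3 (adjusted p of 0.0564 to 0.073).

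Ctnnb1 encodes beta-catenin, the messenger of the pathway, and its 2 probes also disagreed. Probe 1 measured 11.09, 11.12, 11.14 and 11.12 in Scube3 N294K/N294K mice and 11.08, 11.22, 11.00 and 11.05 in wild type mice. Here the genotypes overlapped and the difference was near 0 (log2 fold change 0.03, SE 0.0622, adjusted p = 0.765). Probe 2 measured 9.27, 9.51, 9.45 and 9.41 in Scube3 N294K/N294K mice, against 9.59, 9.77, 9.69 and 9.78 in wild type mice. It was 1.23-fold lower with no overlap (log2 fold change -0.30, SE 0.0722, adjusted p = 0.0229). This call was lost without wild type mouse 2, wild type mouse 4 or Scube3 N294K/N294K mouse 1 (adjusted p of 0.0504 to 0.0596). Axin2, a scaffold that is also a widely used Wnt target gene, missed the threshold, with a log2 fold change of -0.23 and an adjusted p of 0.118 (SE 0.0932). It was above background in 2 of 4 Scube3 N294K/N294K mice and in 4 of 4 wild type mice. Among the TCF/LEF factors, Tcf7l2 was above background and Lef1 was not. Tcf7l2 measured 8.62, 8.44, 8.36 and 8.59 in Scube3 N294K/N294K mice and 8.65, 8.53, 8.55 and 8.51 in wild type mice on probe 1, and 5.40, 5.74, 5.37 and 5.15 in Scube3 N294K/N294K mice and 5.16, 5.49, 5.14 and 5.38 in wild type mice on probe 2. The genotypes overlapped on both probes (log2 fold change -0.06, SE 0.0733, and 0.12, SE 0.127).

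**Figure D3:**
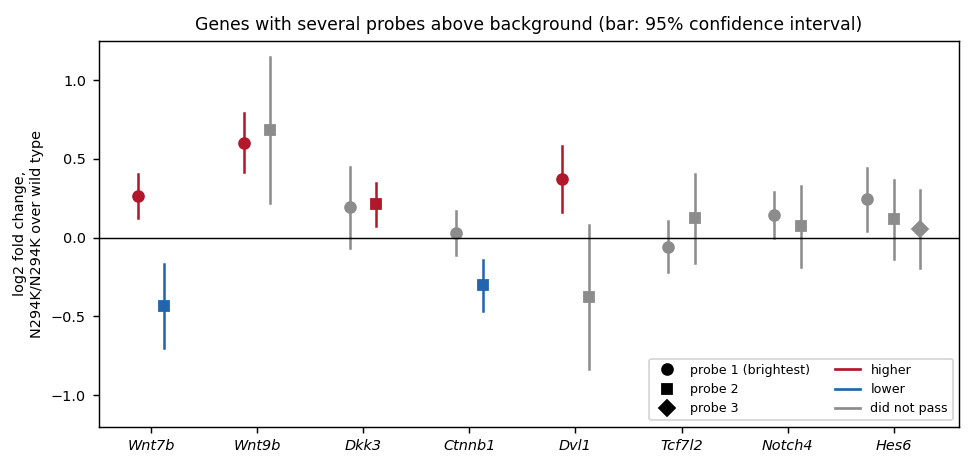
Log2 fold change, Scube3 N294K/N294K over wild type, of each tested probe of the 8 member genes with several tested probes, with 95% confidence intervals from limma. The probes of Wnt7b, Ctnnb1, Dvl1 and Tcf7l2 lie on both sides of 0, whereas those of Wnt9b, Dkk3, Notch4 and Hes6 lie on 1 side.

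Probes of the same gene disagreed in several members, and how often this happens over all genes on the array was not examined. Of the 8 genes with several tested probes, 4 had probes with opposite signs (Wnt7b, Ctnnb1, Dvl1 and Tcf7l2). In 4 genes the calls differed between probes (Wnt9b, Dkk3, Ctnnb1 and Dvl1). Wnt7b was the 1 gene with all tested probes called, with opposite signs and with probe 2 tested only through the wild type mice. Which transcripts each probe reads was not examined here. When the log2 values of all tested probes of a gene were averaged, Wnt9b was still higher (log2 fold change 0.64, adjusted p = 0.0119), whereas Wnt7b (-0.08), Dvl1 (-0.002) and Ctnnb1 (-0.14) did not pass.

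No Notch gene passed the test. Of 17 Notch genes, 10 were above background: the ligands Dll1, Dll4 and Jag2, all 4 receptors, and the repressors Hes1, Hes6 and Hey1. Dll4, a ligand best known from endothelium, had the smallest p-value among the ligands. It measured 5.16, 4.74, 4.87 and 5.03 in Scube3 N294K/N294K mice and 5.28, 4.92, 5.08 and 5.10 in wild type mice. The genotypes overlapped (log2 fold change -0.14, SE 0.105, adjusted p = 0.363), and Dll4 was above background in 2 of 4 Scube3 N294K/N294K mice and in 4 of 4 wild type mice. Dll1 and Jag2 had log2 fold changes of -0.00355 and -0.02, with intervals from -0.37 to 0.36 and from -0.23 to 0.19. Neither interval shows that the ligand was the same in both genotypes.

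Notch3, the receptor known from vascular smooth muscle, had the smallest p-value among the receptors. It measured 7.17, 7.22, 7.07 and 7.01 in Scube3 N294K/N294K mice and 7.46, 7.16, 7.17 and 7.55 in wild type mice. Wild type mice 1 and 4 were above all others, and the other wild type values fell among the Scube3 N294K/N294K values (log2 fold change -0.22, SE 0.0996, adjusted p = 0.155). Under median scaling Notch3 passed (adjusted p = 0.039). Notch4, a receptor of endothelium, measured 8.99, 8.98, 8.96 and 8.96 on probe 1 in Scube3 N294K/N294K mice, against 8.69, 8.83, 8.94 and 8.88 in wild type mice. It was the 1 tested Notch probe without overlap of the genotypes, yet the difference was small and did not pass (log2 fold change 0.14, SE 0.0653, adjusted p = 0.158). Its probe 2 had a log2 fold change of 0.07. Notch1 and Notch2, the receptors of epithelium and other cells, had log2 fold changes of 0.17 and 0.05, with intervals from -0.12 to 0.47 and from -0.26 to 0.36.

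Among the Notch genes, the Hes and Hey genes came closest to the threshold. Hey1, a repressor that Notch switches on in vessels and epithelium, measured 5.31, 5.69, 5.25 and 5.52 in Scube3 N294K/N294K mice, against 6.00, 5.59, 5.74 and 6.09 in wild type mice. Scube3 N294K/N294K mouse 2 was above wild type mouse 2, and the difference missed the threshold (log2 fold change -0.41, SE 0.131, adjusted p = 0.0578). Without wild type mouse 2 or Scube3 N294K/N294K mouse 2 Hey1 passed in limma (adjusted p = 0.0414 and 0.045), and without any 1 of the other 6 mice it did not (0.0744 to 0.137). Hey1 also passed under median scaling (adjusted p = 0.0244), with an offset of 50 (0.0445) and with trend and robust moderation (0.0397). The same held with probes above background on all 8 arrays (0.047) and at a detection p under 0.01 (0.0491). In all it passed under 7 of 17 alternatives. Hes6, which opposes Hes1, had log2 fold changes of 0.24, 0.12 and 0.06 on its 3 probes, with adjusted p-values of 0.0859, 0.492 and 0.751. A Hes6 probe passed without wild type mouse 3, without background correction, with an offset of 50 and with trend and robust moderation. Hey1 and Hes6 probe 1 were the 2 Notch probes with an unadjusted p under 0.05. Hes1, the best known Notch target, had a log2 fold change of -0.12 with an interval from -0.34 to 0.10. With SAM, the method of the study's own analysis, at a median false discovery rate under 6% and no demand on the fold, 1 of 23 Notch probes was called (Hey1), along with 10 Wnt probes and 9.29% of all probes.

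Markers of cells that carry Notch receptors and ligands were read by probe 1 of each gene, beside 16.3% of all genes called. Of 10 tested endothelial markers, 2 were lower (Cdh5 and Ehd3) and 8 did not pass, Flt1 (0.19) and Kdr (0.09) among them with positive log2 fold changes. The list had a summed intensity of 4510 to 5130 in Scube3 N294K/N294K mice and 4807 to 6116 in wild type mice. By probe 1, none of 5 tested smooth muscle and pericyte markers and none of 4 fibroblast markers passed, but the fourth probe of Acta2 (-0.64, adjusted p = 0.00551) and the second of Dcn (-0.53, adjusted p = 0.0178) were lower, with no overlap. Of 3 podocyte markers on the array, 2 were lower (Ptpro and Wt1), with a summed intensity of 471 to 586 in Scube3 N294K/N294K mice and 593 to 747 in wild type mice. In the thick ascending limb, 5 of 7 markers were lower (Cldn16, Egf, Ptger3, Slc12a1 and Umod), and the summed intensity was 10156 to 12819 in Scube3 N294K/N294K mice, against 16404 to 19345 in wild type mice. Not all lists fell. Of 7 markers of parietal and loop progenitor epithelium, 3 were higher (Cldn3, Krt18 and Pax8) and 0 lower. Their summed intensity was 2537 to 2635 in Scube3 N294K/N294K mice and 2174 to 2521 in wild type mice. In the distal convoluted tubule, 2 of 4 tested markers were higher (Pvalb and Slc12a3) and 0 lower. The part of all these cells in the results on Wnt and Notch genes was not tested.

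**Figure D4:**
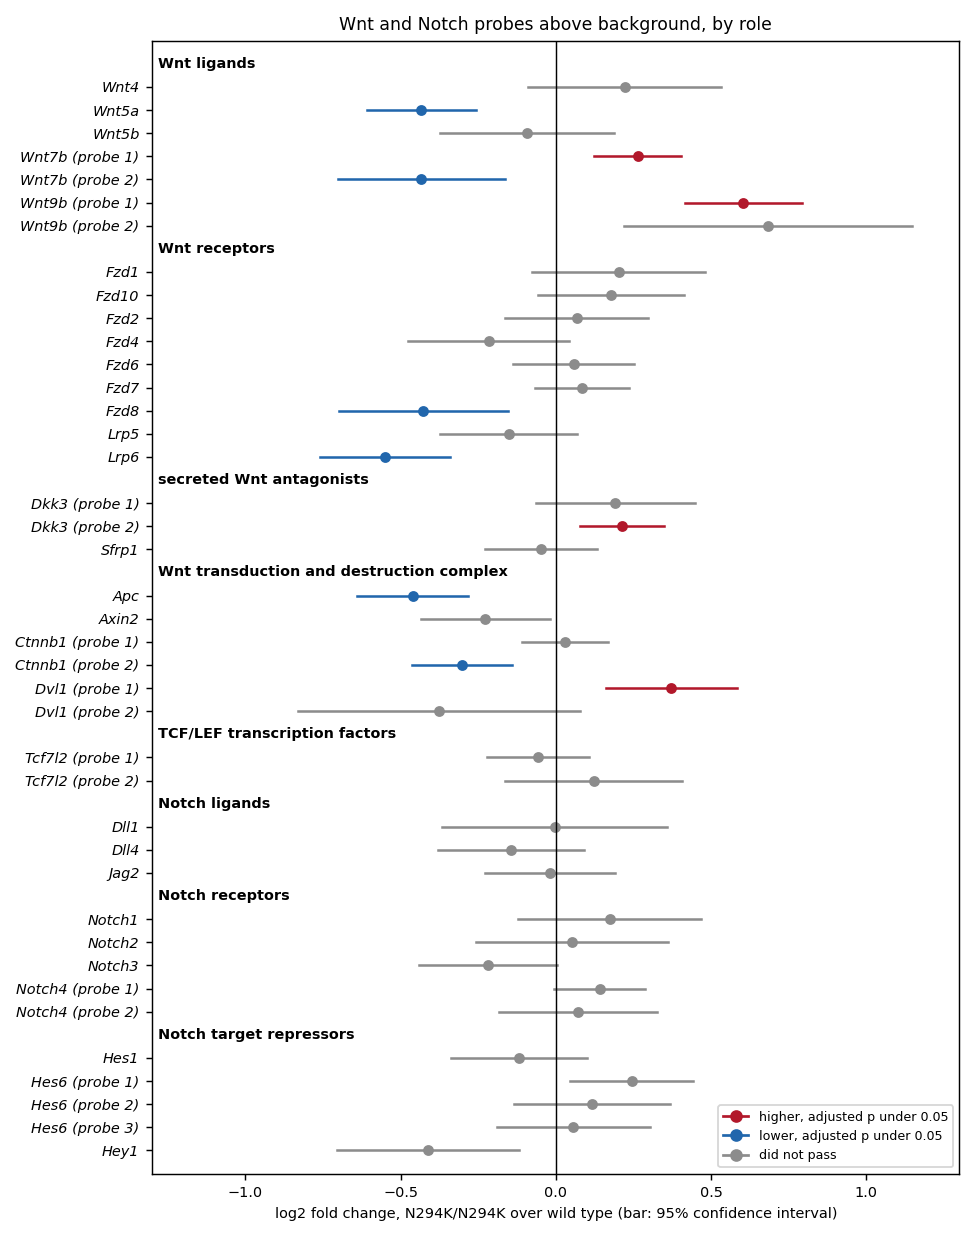
Log2 fold change, Scube3 N294K/N294K over wild type, of the 40 tested member probes, grouped by role, with 95% confidence intervals from limma. Probes that passed (adjusted p under 0.05) are coloured and run from -0.55 for Lrp6 to 0.60 for Wnt9b. The Notch groups hold no coloured probe.

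The 31 member genes that were not above background on 4 arrays were Wnt1, Wnt2, Wnt2b, Wnt3, Wnt3a, Wnt6, Wnt7a, Wnt8a, Wnt8b, Wnt9a, Wnt10a, Wnt10b, Wnt11 and Wnt16 among the ligands, Fzd3 among the receptors, and Dkk1, Dkk2, Dkk4, Sfrp2, Sfrp4 and Sfrp5 among the antagonists. Dvl2, Dvl3 and Lef1 completed the Wnt genes. On the Notch side these were Dll3, Jag1, Hes2, Hes3, Hes5, Hes7 and Hey2. Of the 31 genes, 28 were above background on none of the 8 arrays, and Dll3 was on 3, Sfrp2 on 2 and Sfrp5 on 1. The 3 arrays with Dll3 were all from Scube3 N294K/N294K mice, and the genotypes did not overlap, but the probe was not tested.

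By the median, tested member probes varied more between mice of a genotype than all tested probes, in a comparison not matched for intensity. Their median pooled SD was 0.159 on the log2 scale, against 0.122 over all tested probes, and their median SE of the fold change was 0.101, against 0.0839. The spread ranged from 0.063 to 0.365 and was widest for Wnt9b probe 2 (0.365) and Dvl1 probe 2 (0.357). The median size of the log2 fold change, signs dropped, was 0.185 for member probes and 0.139 for all tested probes.

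Beyond the rule, 122 further genes of both pathways were listed by function, of which 107 were on the array and 66 above background. Of these 66, 4 were higher and 8 lower by probe 1, with a median log2 fold change of 0.01, and these 12 of 66 stand beside 16.3% of all genes (8.4% higher and 7.86% lower), a share of similar size. Under median scaling the same number of genes passed, 0 higher and 12 lower. On the Wnt side, 1 of 38 genes was higher and 4 were lower. Sostdc1, a secreted antagonist of bone morphogenetic proteins and Wnt ligands, measured 8.06, 7.74, 7.89 and 7.79 in Scube3 N294K/N294K mice, against 8.64, 8.33, 8.33 and 8.35 in wild type mice, and was lower with no overlap (log2 fold change -0.54, SE 0.0951, adjusted p = 0.00819). The secreted Wnt inhibitor Wif1 had a log2 fold change of -0.34 (adjusted p = 0.033). It was above background in 1 of 4 Scube3 N294K/N294K mice and in 4 of 4 wild type mice, so it entered the test only through the group where it is higher, and its call, though counted, is no support for a fall. In the destruction complex, the kinase gene Gsk3a (-0.43) and the phosphatase subunit gene Ppp2r5a (-0.30) were lower, and the related subunit gene Ppp2r5d was higher on probe 1 (0.31) and probe 2 (0.23) but not on probe 3 (-0.13, adjusted p = 0.455). Csnk1e, a kinase gene of the pathway, was higher on probe 2 (0.27) and did not pass on probe 1 (-0.20, adjusted p = 0.202). None of the 3 tested genes for R-spondin signaling and receptor turnover passed, nor did any of 6 planar cell polarity genes or 4 feedback and target genes.

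On the Notch side, 3 of 28 further genes were higher and 4 lower. Pofut1 (0.48), which adds the O-fucose that Notch receptors need, was higher, as were Mib2 (0.25) and Neurl1a (0.36), ubiquitin ligases that act on Notch ligands. Mib1 (-0.27), the main ligase of this kind in mammals, and Ncstn (-0.22), a subunit of the gamma-secretase that cuts Notch, were lower. Ncstn did not pass on probe 2 (-0.11) or probe 3 (0.03). Ep300 and Kat2b, acetyltransferases that join the Notch complex on DNA and serve many other factors as well, showed the widest falls of the listed genes. Ep300 measured 8.35, 8.32, 8.12 and 8.11 in Scube3 N294K/N294K mice, against 8.90, 8.93, 8.76 and 8.98 in wild type mice (log2 fold change -0.67, SE 0.0788, adjusted p = 0.00276). Kat2b measured 6.59, 6.35, 6.23 and 6.09 in Scube3 N294K/N294K mice, against 7.22, 6.99, 7.09 and 6.93 in wild type mice on probe 1 (log2 fold change -0.74, SE 0.108, adjusted p = 0.00443). Neither gene showed overlap, and probe 2 of Kat2b fell as well (-0.63, adjusted p = 0.00276). Rbpj and Adam10, which encode the DNA-binding partner and a protease of Notch, were not above background.

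**Figure D5:**
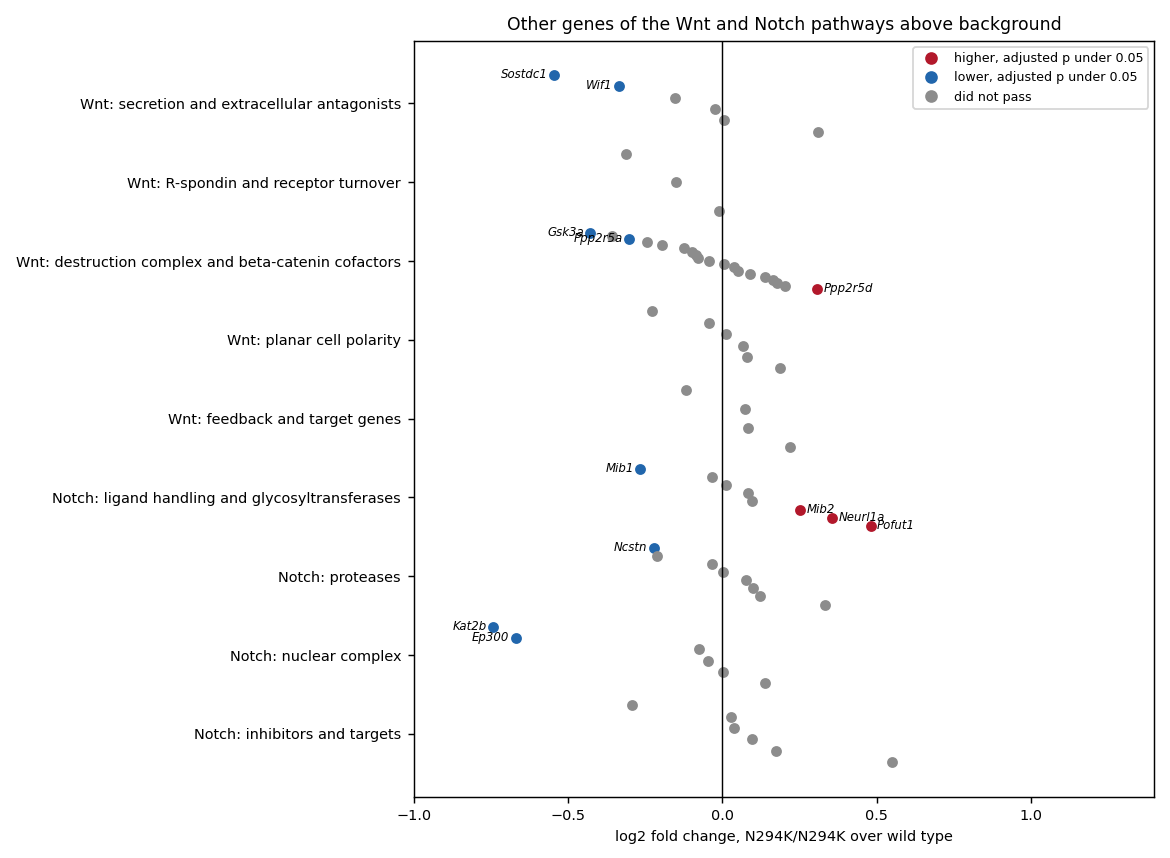
Log2 fold change, Scube3 N294K/N294K over wild type, of the 66 further Wnt and Notch pathway genes above background, by function, with 1 point per gene (probe 1) and names for the 12 that passed (adjusted p under 0.05, limma). Kat2b and Ep300 lie farthest to the left and Pofut1 is the named gene farthest to the right.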

How the data were processed

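Gene names came from the array's platform annotation, updated by gene number. The authors deposited scanned intensities (mean bead intensity, linear, no background subtraction or normalization) and the detection p-values of GenomeStudio 2011.1 (submitters' processing notes), 1 per probe and array. They also deposited intensities after background subtraction and cubic spline normalization, used as an alternative. Scanned intensities were corrected by normexp from the detection p-values (offset 16), quantile-normalized and expressed as log2 by neqc (limma 3.58.1, R 4.3.3). Genotype was the only term in lmFit and eBayes, with Benjamini-Hochberg adjustment over 12914 probes. The fit was tested on simulated data. Each mouse is 1 replicate.

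Members and further gene lists were chosen with earlier results of these data known. Values per mouse are given for member genes with a called probe and, in each role without one, for the gene with the smallest p. Outside this rule they are given for Notch4, Sostdc1, Ep300 and Kat2b, picked with their values known. The genotypes did not overlap for these genes on the probe shown. SAM was written anew from its published description and run on the authors' normalized intensities, floored at 16 (all 70 arrangements). The median of these intensities was 13.3 to 13.4 on each array, under the floor. The shares of all probes given for SAM therefore include many values set to the floor. Alternatives covered background correction, scaling, offset, filter, moderation, replicate block, averaging of probes, the study's thresholds (fold above 1.6, false discovery rate under 6%) and leaving out each mouse.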

Additional observations from a re-analysis of the deposited data

Results flagged for a closer look

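In 4 of 80 groups of 4 mice, counted over the 40 tested member probes, 1 mouse stood apart from the others by Dixon's ratio, and chance flags about 1 in 20 groups. Wnt7b probe 1 was 6.283 in Scube3 N294K/N294K mouse 2, above the 6.192 to 6.203 of the other Scube3 N294K/N294K mice. Fzd7 was 8.11 in Scube3 N294K/N294K mouse 1, below 8.257 to 8.271 in the others. Notch4 probe 2 was 4.762 in Scube3 N294K/N294K mouse 2, below 5.051 to 5.088 in the others. Hes6 probe 2 was 7.717 in wild type mouse 3, above 7.31 to 7.366 in the other wild type mice.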

How the results depend on the processing

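The calls for Wnt9b probe 1, Wnt5a, Lrp6 and Apc held in limma at an adjusted p under 0.05 under every alternative run for them, whereas those for Wnt7b, Fzd8, Dkk3, Ctnnb1 and Dvl1 were each lost under at least 3. Over single members, 260 of 324 values kept their direction and their side of the threshold, 45 lost the call, 14 gained it and 5 changed sign. Ctnnb1 probe 1 turned to -0.03396 under median scaling, and averaging the probes of a gene gave -0.08462 for Wnt7b, -0.1357 for Ctnnb1, -0.001997 for Dvl1 and 0.03271 for Tcf7l2. Called member probes numbered 10, and 6 with the replicate number as a block, where 10.5% of all tested probes were called. At the study's thresholds 1 was called in limma (Wnt9b probe 2, whereas probe 1 is under the fold), beside 0.643% of all tested probes. SAM at those thresholds called 2 (both Wnt9b probes), beside 0.911% of all probes. This run called 234 probes at those thresholds and is not the study's own gene list, with which it was not compared. Wnt5a, Lrp6 and Apc were lost under both. Called member genes numbered 7, and 4 with the block. Whether the replicate numbers pair the mice is not known. The deviations of mice with the same number correlated at 0.13, -0.0701, -0.0964 and -0.0228 for numbers 1 to 4. Of the Scube3 N294K/N294K mice, only mouse 1 correlated best with the wild type mouse of its own number. These values cannot decide it, since no known pairs were at hand for comparison. Leaving out 1 mouse gave 5 to 8 called member probes, beside 8.83% to 13% of all tested probes. It gave 4 to 7 called member genes and 7 to 10 called further pathway genes, against 12 with all mice. The median log2 fold change of the member genes was -0.003553, and -0.04507 under median scaling, 0.03015 with probes above background on all 8 arrays, 0.04103 at a detection p under 0.01, and -0.06418 to 0.02945 without 1 mouse. Over the alternatives, 0 to 2 Notch probes passed (Hey1, Hes6 or Notch3). The cause of these shifts was not tested. Many members lie close to background, where 4 mice a genotype and the offset limit what can be seen.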
